A study of Drosophila melanogaster with 10 samples.

Results

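The 10 genes described here encode cyclins and the regulators that admit a cell to S phase or mitosis: CycA, CycB, CycB3, CycD, CycE, Cdk4, stg, E2f (now E2f1), Rbf and dap. They were taken by gene symbol from the deposited tables, which list 14210 genes, and all 10 were found once and passed the filter of a mean of at least 1 FPKM (fragments scaled to transcript length and to the mapped fragments of a library). RNA was measured in neuroblasts of the central brain of Drosophila melanogaster, stem cells that produce neurons and glia, which were sorted as large cells with strong GFP. The 3 groups were pupae of 0 to 2 h carrying an RNA interference (RNAi) construct against med27, wild-type pupae of the same age, and wild-type larvae of the last instar, late in that stage. Every group carried UAS-CD8::GFP under inscuteable-Gal4, a driver active in neuroblasts, and wild-type animals had the empty landing site VIE-260B in place of the construct. The same driver expressed the RNAi construct. All animals came from eggs laid over 24 h and were kept at 29 °C, for 6 days (pupae) or 5 days (larvae). Each group held 2 biological replicates. Every pupal replicate had been sequenced in 2 technical runs, whose mean was used, and n is 2 in all groups. No source says whether replicates came from separate cultures. A p-value here sets a difference only against the spread between these samples, pooled over the 3 groups.

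In G1 phase, the kinase Cdk4 with its partner cyclin D phosphorylates the repressor Rbf, the fly retinoblastoma protein, which frees the transcription factor E2f1 to switch on S-phase genes, cyclin E among them. Cyclin E with Cdk2 then starts replication, and the dacapo protein (dap) blocks that kinase. Cyclins A, B and B3 act with Cdk1 in mitosis and are destroyed in its course. The phosphatase String (stg, a Cdc25) removes the inhibitory phosphate from Cdk1. Larval neuroblasts divide many times, and those of the central brain shrink and stop dividing during pupal life. The product of med27 is part of Mediator, a large complex that passes signals of transcription factors on to the polymerase.

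MED27 itself, the targeted gene, stood at 5.33 and 3.99 FPKM in med27 RNAi pupae, at 31.5 and 27.4 FPKM in wild-type pupae and at 31.7 and 38.3 FPKM in wild-type larvae. It fell by 2.43 on the log2 scale against wild-type pupae (limma adjusted p = 0.000522), and it overlaps CG2182 on the other strand, which averaged 48.4 FPKM over the runs. Confidence bounds in the tables implied about 27.3 to 31.2 M fragments per pupal run and 18.6 to 18.8 M fragments per larval library. All 7 listed neuroblast markers were above 1 FPKM, with sums of 1530 and 1495 FPKM in med27 RNAi pupae, 1701 and 1683 FPKM in wild-type pupae and 1430.2 and 1360.1 FPKM in wild-type larvae. The largest part of each sum was mira. Between the stages 3 rose and 0 fell (22.7% and 26.5% of all genes tested), namely ase by 0.67, klu by 0.90 and grh by 0.78 (limma adjusted p = 0.0027, 0.00152 and 0.00325). After correction for transcript length 3 were higher and 1 lower (14.1% and 18.9% of all genes). The lower one was insc, at -0.28 (limma adjusted p = 0.0391). Under RNAi 0 rose and 2 fell (19.6% and 8.64%), ase by 0.82 and klu by 0.35 (limma adjusted p = 0.00224 and 0.0324). Neuron markers summed to 74.4 and 77.5 FPKM in med27 RNAi pupae, 82.0 and 139 FPKM in wild-type pupae and 35.2 and 31.0 FPKM in wild-type larvae. Of 11 listed, 4 were below 1 FPKM, and the other 7 all rose in wild-type pupae against wild-type larvae (22.7% of all genes tested). With the length trend described below removed, 5 of them were called higher (14.1% of all genes). Syt1 and VGlut averaged 0.634 and 0.579 FPKM in larvae, so they passed the filter through the pupal groups. Under RNAi 0 were higher than in wild-type pupae and 1 lower (19.6% and 8.64%), Appl by 0.84 (limma adjusted p = 0.0358). Fat body markers summed to at most 1.43 FPKM in any replicate. Glial markers summed to 171 and 173 FPKM in med27 RNAi pupae, 205 and 209.9 FPKM in wild-type pupae and 211 and 178 FPKM in wild-type larvae, and 4 of the 8 listed, repo among them, averaged below 1 FPKM. Of the other 4, Eaat1 fell by 1.77 under RNAi against wild-type pupae (limma adjusted p = 0.000522). Its mean was 66.3 FPKM in wild-type pupae and 18.7 FPKM in med27 RNAi pupae, and the lower glial sum under RNAi rested on it. The rest did not follow Eaat1 in that comparison and were not called, at 0.15 for nrv2, -0.04 for loco and -0.08 for gcm. Between the stages loco rose by 0.28 (limma adjusted p = 0.0431), a rise that shrank to 0.01 after correction for transcript length and was no longer called. Haemocyte markers summed to 25.7 and 21.9 FPKM in med27 RNAi pupae, 20.7 and 30.1 FPKM in wild-type pupae and 14.8 and 11.2 FPKM in wild-type larvae, nearly all of it sn, which rose by 0.95 between the stages (limma adjusted p = 0.00962). The other 4 matched averaged below 1 FPKM and did not follow sn. Hml was at 0.019 and 0.013 FPKM in wild-type pupae and 0.055 and 0.138 FPKM in larvae, and Pxn, srp and vkg overlapped between these groups. The part of these markers in the results was not tested. Change also followed transcript length: per doubling of length, the log2 deviation of a replicate from the gene mean had a slope of 0.0033 and 0.042 in med27 RNAi pupae, 0.09 and 0.187 in wild-type pupae and -0.121 and -0.201 in wild-type larvae. Results are therefore also given with that trend removed. The names of the deposited tables carry one run code for all pupal and another for all larval libraries, so stage and sequencing run cannot be told apart.

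CycA was the most abundant of the 10 transcripts in every group, and dap and Cdk4 were the least. The mitotic cyclins held the first 3 places in med27 RNAi pupae and in wild-type larvae, and in wild-type pupae stg stood above CycB, with which it overlapped. In wild-type pupae CycA averaged 618 ± 20.6 FPKM, above 97.9% of the tested genes, and dap 8.59 ± 4.8 FPKM, above 23.6% of them (SD, n = 2). The order by level in wild-type pupae was CycA, CycB3, stg, CycB, CycE, E2f, CycD, Rbf, Cdk4, dap, and no other neighbours in it overlapped. In med27 RNAi pupae CycB ranked above stg and dap above Cdk4, and no neighbours overlapped. The order in wild-type larvae had CycB above CycB3 and Rbf above CycD, both pairs overlapping. Technical runs of 1 replicate differed by at most 6.9% for dap and 5.48% for CycD, and by less for the other members.

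**Figure D1:**
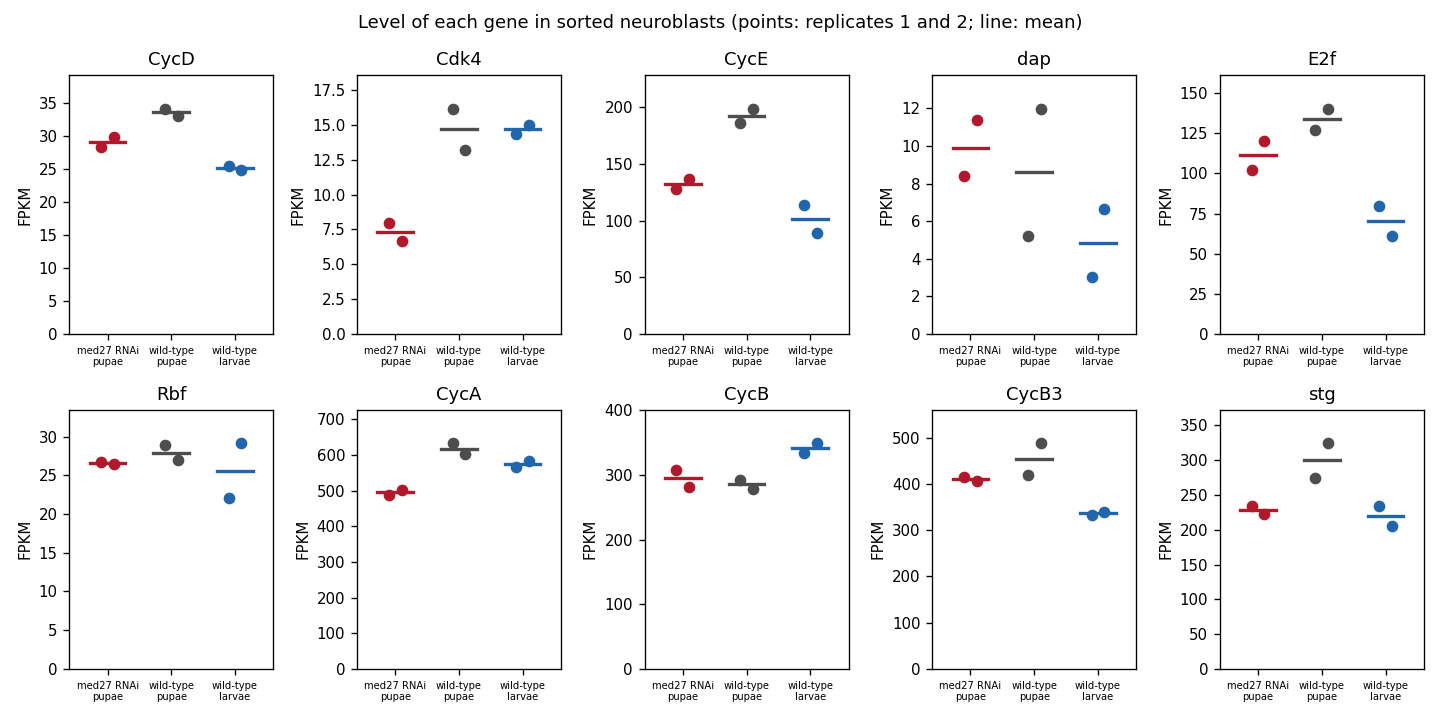
FPKM of each of the 10 genes (y axes from 0) in med27 RNAi pupae, wild-type pupae and wild-type larvae, with replicates as points and group means as lines. Cdk4 lies at 7.93 and 6.7 FPKM in med27 RNAi pupae, below all other replicates, and CycE is highest in wild-type pupae at 186 and 199 FPKM.

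Between the stages, 5 members were higher and 1 lower in wild-type pupae than in wild-type larvae. CycE and E2f rose most, followed by stg, CycB3 and CycD, and CycB fell. Among all 6992 genes tested by limma on log2(FPKM + 1), 22.7% were called higher and 26.5% lower at an adjusted p below 0.05 (Benjamini-Hochberg over all of them). The median log2 change was 0.42 over the members and -0.07 over all genes. Replicates of wild-type pupae lay wholly above those of wild-type larvae for 6 members and wholly below for 1, against 33.8% and 43.3% of all genes. With the length trend removed 5 members were higher and 1 lower, against 14.1% and 18.9% of all genes. Without wild-type pupal replicate 2 the members called were 3 higher and 0 lower.

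Against wild-type pupae, med27 RNAi pupae had 0 members higher and 4 lower, namely Cdk4, CycE, stg and CycA. Across all genes 19.6% were called higher and 8.64% lower in that comparison. The member median was -0.23 on the log2 scale and that of all genes 0.05. The replicates lay wholly below those of wild-type pupae for 8 members and wholly above for 0, against 28.7% and 42.7% of all genes. With the length trend removed the same counts of 0 and 4 stood against 16.8% and 11.3% of all genes. The 1373 higher and 604 lower calls over all genes became 879 and 782 under quantile normalization and 1008 and 852 under median-ratio scaling, where 6 and 5 members were lower and 0 higher. Only Cdk4 was still called without wild-type pupal replicate 2, without RNAi replicate 1 or without RNAi replicate 2, and 3 members without wild-type pupal replicate 1.

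**Figure D2:**
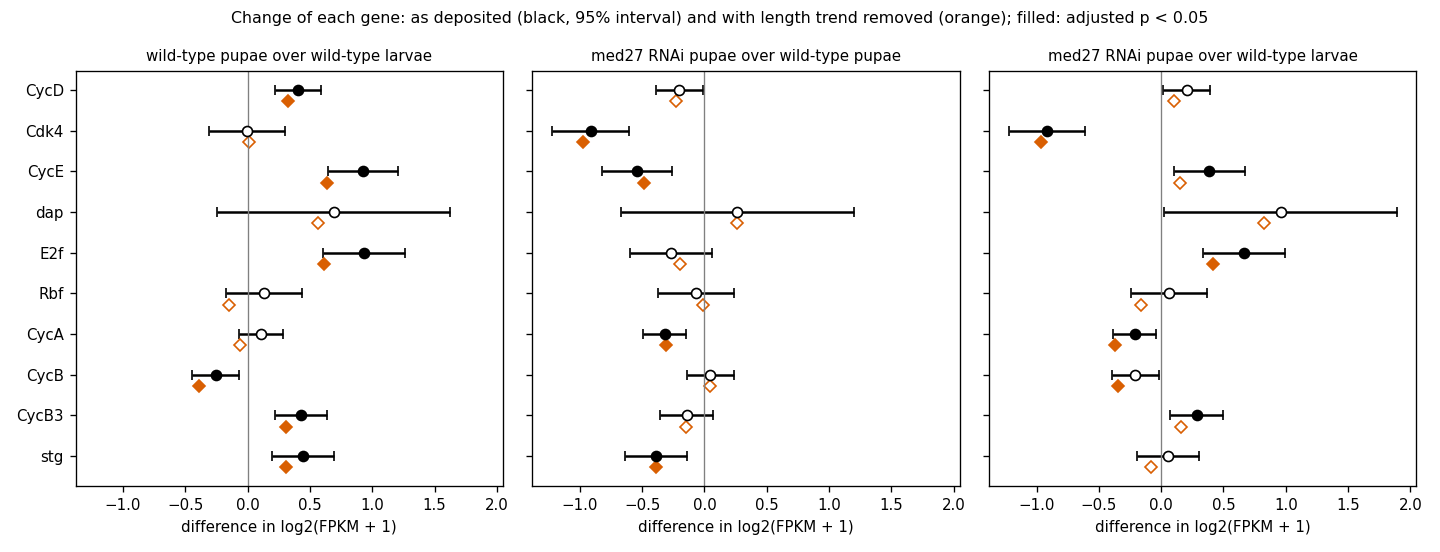
Difference in log2(FPKM + 1) of each gene in 3 comparisons, as deposited (black, with 95% intervals) and with the length trend removed (orange); filled symbols have an adjusted p below 0.05. Cdk4 is near 0 between the wild-type stages and at -0.91 in med27 RNAi pupae over wild-type pupae.

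Cdk4 (FBgn0016131, 2R 12466981 to 12472953, coordinates as in the deposited tables, which name no build), the G1 kinase, showed the largest change among the members between med27 RNAi and wild-type pupae. It stood at 7.93 and 6.7 FPKM in med27 RNAi pupae, at 16.2 and 13.2 FPKM in wild-type pupae and at 14.4 and 15.0 FPKM in wild-type larvae. Both RNAi replicates were below every wild-type replicate, and the wild-type stages overlapped. The level fell by 0.91 on the log2 scale against wild-type pupae (SE 0.13, limma adjusted p = 0.00356) and by 0.92 against wild-type larvae (SE 0.13, limma adjusted p = 0.00178). Its call against wild-type pupae held in all 18 alternative analyses, with log2 changes from -1.05 to -0.67. Between wild-type pupae and larvae the change was -0.01, with a 95% interval of -0.31 to 0.3 (limma adjusted p = 0.974).

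Its partner CycD (FBgn0010315, X 15800855 to 15803708) was measured at 28.4 and 29.8 FPKM in med27 RNAi pupae, 34.1 and 33.1 FPKM in wild-type pupae and 25.5 and 24.8 FPKM in wild-type larvae. The 3 groups did not overlap, with RNAi pupae between the wild-type stages. CycD rose by 0.40 in wild-type pupae against wild-type larvae (SE 0.08, limma adjusted p = 0.00639), and by 0.33 after removal of the length trend (limma adjusted p = 0.0176). RNAi pupae did not pass against wild-type pupae, at -0.20 with a 95% interval of -0.39 to -0.01 (limma adjusted p = 0.102). That difference passed under quantile normalization at -0.29 (limma adjusted p = 0.0421) and under median-ratio scaling at -0.29 (limma adjusted p = 0.0393).

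The transcripts of the G1 kinase and its cyclin thus stood in different proportions by group. CycD over Cdk4 in FPKM was 3.58 and 4.45 in med27 RNAi pupae, 2.11 and 2.51 in wild-type pupae and 1.77 and 1.66 in wild-type larvae. The ranges did not overlap, and the ratios were not tested. A ratio within a library shows unequal levels and not which gene changed.

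CycE (FBgn0010382, 2L 15727762 to 15748155), the S-phase cyclin, had 128 and 136 FPKM in med27 RNAi pupae, 186 and 199 FPKM in wild-type pupae and 114 and 88.9 FPKM in wild-type larvae. Again the 3 groups were separate, with RNAi pupae in between. It rose by 0.93 in wild-type pupae against wild-type larvae (SE 0.12, limma adjusted p = 0.00187), a call held in all 18 alternatives, and by 0.64 with the length trend removed. Under RNAi it fell by 0.54 against wild-type pupae (SE 0.12, limma adjusted p = 0.0163). The RNAi call ended when wild-type pupal replicate 2 was left out (limma adjusted p = 0.0842), or RNAi replicate 1 (0.0858) or RNAi replicate 2 (0.0611), and without a filter on low values (0.0624), at log2 changes of -0.49, -0.49, -0.59 and -0.54.

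dap (FBgn0010316, 2R 5599829 to 5603607), the inhibitor of the cyclin E kinase, gave the widest spread between replicates. It stood at 8.4 and 11.3 FPKM in med27 RNAi pupae, at 5.19 and 11.98 FPKM in wild-type pupae and at 3.03 and 6.63 FPKM in wild-type larvae. Both RNAi replicates were above both larval ones, while wild-type pupae overlapped with either group. These values rested on 513 to 646 fragments per run in RNAi pupae, 300 to 750 in wild-type pupae and 106 and 227 in larvae. Replicates of a group differed more than technical runs did. No comparison passed: the log2 change was 0.69 for wild-type pupae over larvae, with a 95% interval of -0.24 to 1.63 (limma adjusted p = 0.182), and 0.26 for RNAi over wild-type pupae, from -0.67 to 1.2 (limma adjusted p = 0.652). Without wild-type pupal replicate 1 the first was 1.23 and passed (limma adjusted p = 0.0377), and without replicate 2 it was 0.16. The wild-type pupal replicate with more dap, replicate 2, was also that with the higher neuron marker sum, 139 against 82.0 FPKM, and the part of those markers in the result was not tested. In bulk samples fewer cells of a type and less RNA per cell cannot be told apart.

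E2f (FBgn0011766, 3R 17446026 to 17486127), the activating E2F factor, was at 102 and 120 FPKM in med27 RNAi pupae, 127 and 140.3 FPKM in wild-type pupae and 79.5 and 60.7 FPKM in wild-type larvae. Pupal replicates of either kind were above both larval ones, and the 2 pupal groups did not overlap. E2f rose by 0.93 in wild-type pupae against wild-type larvae (SE 0.14, limma adjusted p = 0.00265) and by 0.62 after removal of the length trend (limma adjusted p = 0.0103). Its call held in all 18 alternatives. RNAi over wild-type pupae gave -0.27, with a 95% interval of -0.59 to 0.06, and did not pass (limma adjusted p = 0.196).

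Rbf (FBgn0015799, X 691121 to 695490), the retinoblastoma repressor of E2f1, had 26.7 and 26.5 FPKM in med27 RNAi pupae, 28.9 and 27.0 FPKM in wild-type pupae and 22.1 and 29.1 FPKM in wild-type larvae. The larval replicates spanned all others. Wild-type pupae over larvae gave 0.13, with a 95% interval of -0.17 to 0.44 (limma adjusted p = 0.413), and RNAi over wild-type pupae -0.07, from -0.37 to 0.24 (limma adjusted p = 0.729). Without larval replicate 2 the stage difference was 0.33 and passed (limma adjusted p = 0.0404). E2f over Rbf was 3.83 and 4.54 in med27 RNAi pupae, 4.41 and 5.19 in wild-type pupae and 3.6 and 2.09 in wild-type larvae, so that larvae lay below both pupal groups, which overlapped.

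The mitotic cyclins differed from each other. CycA (FBgn0000404, 3L 11819818 to 11826695), which acts from S phase into mitosis, had 489 and 502 FPKM in med27 RNAi pupae, 633 and 604 FPKM in wild-type pupae and 567 and 582 FPKM in wild-type larvae. RNAi pupae were lowest and wild-type pupae highest, with no overlap. CycA fell by 0.32 in RNAi against wild-type pupae (SE 0.07, limma adjusted p = 0.0193), and the call ended without any 1 of the 4 replicates compared, at -0.28 and -0.35 without wild-type pupal replicates 1 and 2 and -0.30 and -0.34 without RNAi replicates 1 and 2 (limma adjusted p from 0.0627 to 0.119). The stage difference was 0.10, with a 95% interval of -0.07 to 0.28 (limma adjusted p = 0.271), and it was -0.06 with the length trend removed and 0.28 under quantile normalization, where it passed (limma adjusted p = 0.00729). CycA overlaps CG7264 on the other strand, which averaged 0.18 FPKM over the runs.

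CycB (FBgn0000405, 2R 18691026 to 18694490), a mitotic cyclin, was at 308 and 282 FPKM in med27 RNAi pupae, 293 and 278 FPKM in wild-type pupae and 333 and 349 FPKM in wild-type larvae. Larvae were above both pupal groups, which overlapped. It fell by 0.26 in wild-type pupae against wild-type larvae (SE 0.08, limma adjusted p = 0.0337) and by 0.39 after removal of the length trend (limma adjusted p = 0.0118). The stage call ended under quantile normalization at -0.09 (limma adjusted p = 0.249) and under median-ratio scaling at -0.20 (limma adjusted p = 0.0524). Of the 6 single-replicate omissions it held without larval replicate 1 (limma adjusted p = 0.0431) and ended in the other 5, without larval replicate 2 or any pupal replicate (0.0556 to 0.158). In RNAi over wild-type pupae the change was 0.05, from -0.14 to 0.23 (limma adjusted p = 0.697).

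CycB3 (FBgn0015625, 3R 20694075 to 20696617), the mitotic cyclin of anaphase, had 414 and 406 FPKM in med27 RNAi pupae, 420 and 488 FPKM in wild-type pupae and 334 and 339 FPKM in wild-type larvae. Wild-type pupae were highest and larvae lowest, with no overlap. It rose by 0.43 in wild-type pupae against wild-type larvae (SE 0.09, limma adjusted p = 0.00813), and by 0.32 without wild-type pupal replicate 2, when its limma adjusted p was 0.0502. RNAi over wild-type pupae gave -0.14, from -0.35 to 0.07 (limma adjusted p = 0.279), and -0.38 under quantile normalization, where it passed (limma adjusted p = 0.0309). The summed level of the 3 mitotic cyclins was 1200.8 ± 15.0 FPKM in med27 RNAi pupae, 1357.5 ± 17.5 FPKM in wild-type pupae and 1252 ± 25.5 FPKM in wild-type larvae (SD, n = 2).

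stg (FBgn0003525, 3R 25077540 to 25081502), the phosphatase that releases Cdk1, stood at 234 and 223 FPKM in med27 RNAi pupae, 275 and 324 FPKM in wild-type pupae and 234 and 206 FPKM in wild-type larvae. Wild-type pupae were above both other groups, which overlapped. stg rose by 0.44 in wild-type pupae against larvae (SE 0.11, limma adjusted p = 0.0127) and fell by 0.39 in RNAi against wild-type pupae (SE 0.11, limma adjusted p = 0.0327). The stage call ended without larval replicate 2, at 0.35 (limma adjusted p = 0.0647), and without wild-type pupal replicate 2, at 0.32 (0.0761). The RNAi call ended without wild-type pupal replicate 2 at -0.27, without RNAi replicate 1 at -0.42 and without RNAi replicate 2 at -0.35 (limma adjusted p from 0.0965 to 0.167). It ended too without a filter on low values (0.0871) and without an intensity trend (0.0627).

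The comparison of med27 RNAi pupae with wild-type larvae shares its samples with the other two. Here E2f was higher by 0.67 (limma adjusted p = 0.00771), CycE by 0.39 (limma adjusted p = 0.0334) and CycB3 by 0.29 (limma adjusted p = 0.0349), while Cdk4 and CycA were lower, CycA by a log2 change of -0.21 (limma adjusted p = 0.0491). These 3 higher and 2 lower members stand beside 27.8% higher and 19.5% lower among all genes. Replicates lay wholly above the larval ones for 5 members and wholly below for 3, against 43.4% and 34.2% of all genes. With the length trend removed 1 member was higher and 3 lower, where 22.6% and 22.9% of all genes were called. There CycE at 0.15 (limma adjusted p = 0.257) and CycB3 at 0.16 (limma adjusted p = 0.135) no longer passed, and CycB was lower by a log2 change of -0.35 (limma adjusted p = 0.0111). Leaving out RNAi replicate 2 ended the call of E2f, at 0.55 (limma adjusted p = 0.0546). CycE lost its call without larval replicate 2, at 0.21 (limma adjusted p = 0.104), and without RNAi replicate 1 (0.0732) or 2 (0.16), CycB3 without any 1 of the larval or RNAi replicates (0.0805 to 0.141), and CycA in each of the 6 omissions (0.0667 to 0.215). dap, at 0.96 (limma adjusted p = 0.0845), passed without larval replicate 2, at 1.42 (0.0482), and without wild-type pupal replicate 1 (0.0386) or 2 (0.0398).

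Ratios within a library do not depend on a scaling factor of that library, but they do depend on the length trend where the genes differ in length. CycA over CycB was 1.58 and 1.78 in med27 RNAi pupae, 2.16 and 2.17 in wild-type pupae and 1.7 and 1.67 in wild-type larvae, so wild-type pupae stood apart and the other groups overlapped. The median transcript lengths of these cyclins are close, at 2736 and 2592 nt. CycE over CycD was 4.5 and 4.58 in med27 RNAi pupae, 5.46 and 6.01 in wild-type pupae and 4.48 and 3.59 in wild-type larvae. Here the lengths differ, at 3678 nt for CycE and 2256 nt for CycD, and the stage changes of 0.93 and 0.40 became 0.64 and 0.33 with the trend removed. The mitotic cyclins together exceeded the G1 cyclins CycD and CycE 7.76 and 7.16 times in med27 RNAi pupae, 6.11 and 5.91 times in wild-type pupae and 8.84 and 11.2 times in wild-type larvae, without overlap. CycE over dap was 15.2 and 12.02 in med27 RNAi pupae, 35.8 and 16.6 in wild-type pupae and 37.6 and 13.4 in wild-type larvae, where RNAi pupae lay below wild-type pupae and overlapped with larvae.

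**Figure D3:**
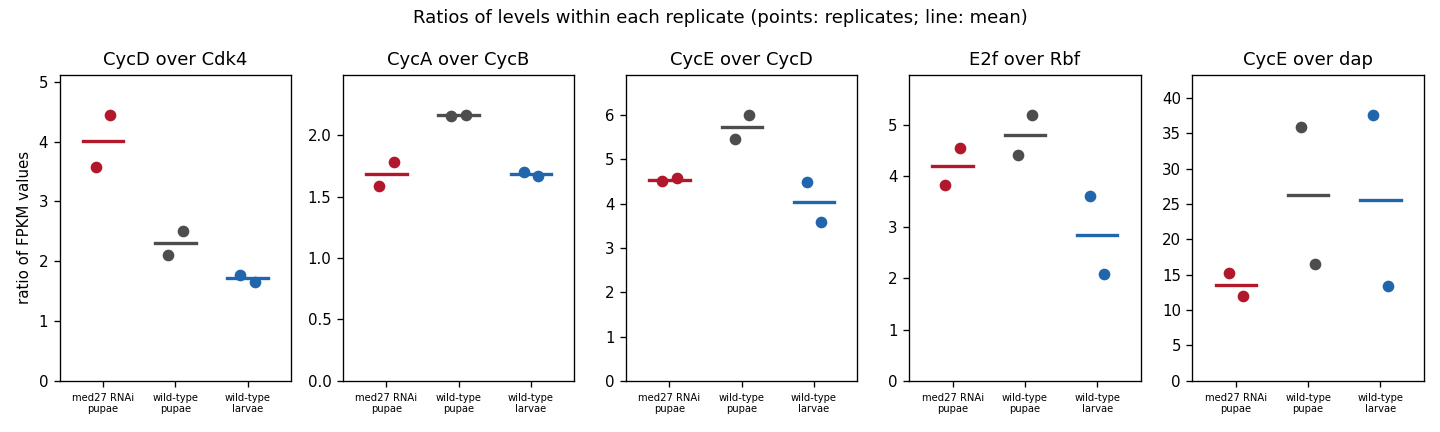
Ratios of FPKM values within each replicate (y axes from 0) in med27 RNAi pupae, wild-type pupae and wild-type larvae, with lines at group means. CycD over Cdk4 is highest in med27 RNAi pupae at 3.58 and 4.45, and CycA over CycB is highest in wild-type pupae at 2.16 and 2.17.

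The authors' deposited tables, which hold genes with an adjusted p below 0.01 in their DESeq comparisons, list 4 members between the stages and 5 under RNAi. In the authors' deposited table, wild-type pupae over larvae gave log2 fold changes of 1.08 for E2f, 0.98 for CycE, 0.98 for dap and 0.47 for stg. For RNAi over wild-type pupae, with signs turned from the authors' deposited table, the log2 fold changes were -1.01 for Cdk4, -0.58 for CycE, -0.42 for stg, -0.37 for CycA and -0.31 for E2f. dap between the stages and E2f under RNAi were thus listed there and did not pass in limma, and CycD, CycB3 and CycB between the stages passed in limma and were not listed at the authors' stricter threshold. Beside the threshold, the test (DESeq or limma) and the values (counts or FPKM) differ. Which runs the authors used is not stated, and the cause of the differences was not tested.

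Other genes of the cell cycle were taken from 6 lists with 61 members found by name, all tested. Between the stages 9 were higher and 16 lower in wild-type pupae, and under RNAi 15 were higher and 5 lower than in wild-type pupae, with medians of -0.15 and 0.13. Over all genes the shares were 22.7% higher and 26.5% lower between the stages and 19.6% and 8.64% under RNAi, with medians of -0.07 and 0.05. With the length trend removed the listed genes had 7 higher and 19 lower between the stages (14.1% and 18.9% of all genes). Under RNAi they then had 14 higher and 5 lower (16.8% and 11.3%). The stage split of the listed genes was 12 higher and 9 lower under quantile normalization and 11 and 15 under median-ratio scaling. Over all 6992 genes that split was 1521 and 1713, and 1699 and 1623. The RNAi split of the listed genes was 7 higher and 9 lower under quantile normalization and 10 and 7 under median-ratio scaling. Over all genes it was 879 and 782, and 1008 and 852.

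The kinases and Cks subunits that partner with cyclins had 0 of 8 higher and 3 lower in wild-type pupae (22.7% and 26.5% of all genes), and 3 higher and 0 lower under RNAi (19.6% and 8.64% of all genes). Their medians were -0.25 and 0.04. With the length trend removed 1 was higher and 2 lower between the stages (14.1% and 18.9% of all genes). Under RNAi 2 were then higher and 1 lower (16.8% and 11.3%), and the medians became -0.08 and -0.12. Cdk9, a kinase of transcription elongation, had 47.3 and 48.1 FPKM in med27 RNAi pupae, 26.2 and 26.5 FPKM in wild-type pupae and 37.7 and 46.0 FPKM in wild-type larvae. It rose by 0.83 under RNAi (limma adjusted p = 0.00231) and fell by 0.64 in wild-type pupae against larvae (limma adjusted p = 0.00333). Cks30A, a Cdk-binding subunit, fell by 0.57 in wild-type pupae (limma adjusted p = 0.00331). Thus Cdk9 and Cdk4 moved in opposite directions in med27 RNAi pupae. The gene of the mitotic kinase itself, cdc2 (Cdk1), was chosen after its values were seen. It had 304.7 and 293 FPKM in med27 RNAi pupae, 235 and 232 FPKM in wild-type pupae and 236 and 232 FPKM in wild-type larvae, so that RNAi pupae were highest and the wild-type stages overlapped. It rose by 0.35 under RNAi (limma adjusted p = 0.0103). That call ended under quantile normalization at 0.12 (0.204), with the length trend taken out at 0.21 (0.0668), and without wild-type pupal replicate 2 (0.0592), RNAi replicate 1 (0.0863) or RNAi replicate 2 (0.0644).

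Among the 7 other cyclins 3 were higher and 2 lower between the stages (22.7% and 26.5% of all genes), and 4 higher and 1 lower under RNAi (19.6% and 8.64%), with medians of -0.24 and 0.32. CycJ is 1 of those 4. With the length trend removed 2 were higher and 1 lower between the stages (14.1% and 18.9% of all genes). Under RNAi 3 were then higher, CycJ again among them, and 1 lower (16.8% and 11.3%). CycG stood at 81.0 and 86.7 FPKM in med27 RNAi pupae, 116 and 141 FPKM in wild-type pupae and 64.0 and 51.6 FPKM in wild-type larvae. It rose by 1.14 between the stages (limma adjusted p = 0.0016) and fell by 0.61 under RNAi (limma adjusted p = 0.0144), a call that ended without wild-type pupal replicate 2 (0.0784), RNAi replicate 1 (0.0739) or RNAi replicate 2 (0.0537). CycJ had 3.48 and 6.16 FPKM in med27 RNAi pupae, 0.461 and 0.392 FPKM in wild-type pupae and 0.805 and 1.08 FPKM in wild-type larvae. Its wild-type means were below 1 FPKM, so it passed the filter through the RNAi group in which it was high, and its difference of 1.99 under RNAi (limma adjusted p = 0.00276) is given as a description. CycT, the partner of Cdk9, rose by 1.17 between the stages (limma adjusted p = 0.00131).

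Of the 15 S-phase genes listed as E2F targets, 0 were higher and 7 lower in wild-type pupae than in larvae (22.7% and 26.5% of all genes), and 0 higher and 11 lower with the length trend removed (14.1% and 18.9% of all genes). Their median was -0.22, and -0.07 over all genes. The replication clamp gene mus209 (PCNA) fell by 0.48 (limma adjusted p = 0.00553) and the helicase gene Mcm2 by 0.40 (limma adjusted p = 0.00967), at -0.19 under quantile normalization (0.0789). In the same comparison E2f and its partner Dp were higher, Dp by 0.35 (limma adjusted p = 0.00631). Dp was at 159 and 157 FPKM in med27 RNAi pupae, 174 and 177 FPKM in wild-type pupae and 137 and 139 FPKM in wild-type larvae. Under RNAi 0 of the 15 were higher than in wild-type pupae and 2 lower, against 19.6% and 8.64% of all genes. With the length trend removed 1 was higher and 2 lower, against 16.8% and 11.3% of all genes. The median under RNAi was 0.09, and 0.05 over all genes. RNAi replicates lay wholly above those of wild-type pupae for 11 of the 15 and wholly below for 3, against 42.7% and 28.7% of all genes. The origin gene Orc1 fell by 0.42 (limma adjusted p = 0.00861), a call that ended without wild-type pupal replicate 2 (0.0564) or RNAi replicate 2 (0.0823).

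For the 3 remaining lists the shares of all genes were the same, 22.7% higher and 26.5% lower between the stages and 19.6% and 8.64% under RNAi. Of the 9 partners of E2F and Rb, 1 was higher and 0 lower between the stages, and 2 higher and 1 lower under RNAi, the last near those shares, with medians of 0.04 and 0.17. With the length trend removed 1 was higher and 0 lower between the stages (14.1% and 18.9% of all genes). Under RNAi 2 were then higher and 0 lower (16.8% and 11.3%). Under RNAi mip40, a subunit of the repressive complex of Rbf and E2F, rose by 0.60 (limma adjusted p = 0.00343). The 12 genes of cyclin destruction had 3 higher and 3 lower between the stages, near the shares of all genes, and 4 higher and 0 lower under RNAi, with medians of -0.03 and 0.20. With the length trend removed 1 was higher and 2 lower between the stages (14.1% and 18.9% of all genes). Under RNAi 4 were then higher and 0 lower (16.8% and 11.3%). In the analysis reported skpA, a subunit of the SCF ubiquitin ligase, rose by 0.65 under RNAi (limma adjusted p = 0.00284). Between the stages lmg, a subunit of the anaphase-promoting complex that destroys mitotic cyclins, rose by 0.54 (limma adjusted p = 0.00987), a call that ended without wild-type pupal replicate 2 (0.0566). In the list of G2 and mitotic control, 2 of 10 were higher and 1 lower between the stages, and 2 higher and 1 lower under RNAi, the last near the shares of all genes, with medians of -0.08 and 0.12. With the length trend removed 2 were higher and 3 lower between the stages (14.1% and 18.9% of all genes). Under RNAi 2 were then higher and 1 lower (16.8% and 11.3%). The phosphatase subunit gene tws rose by 0.71 between the stages (limma adjusted p = 0.00277), as did the catalytic subunit gene mts, by 0.65 (limma adjusted p = 0.00494), and lok, the checkpoint kinase Chk2, rose by 0.65 under RNAi (limma adjusted p = 0.00255). trbl, whose product promotes the loss of String, rose by 0.70 under RNAi (limma adjusted p = 0.0105), a call that ended without wild-type pupal replicate 2 (0.0589) or RNAi replicate 2 (0.0901). The 1 gene of that list lower under RNAi was twe, a Cdc25 phosphatase like stg, named because it was the only one. It stood at 2.72 and 2.38 FPKM in med27 RNAi pupae, 4.49 and 4.05 FPKM in wild-type pupae and 4.11 and 3.14 FPKM in wild-type larvae. It fell by 0.57 (limma adjusted p = 0.0422), and the call ended when any 1 of the 4 replicates compared was left out (0.0946 to 0.215).

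**Figure D4:**
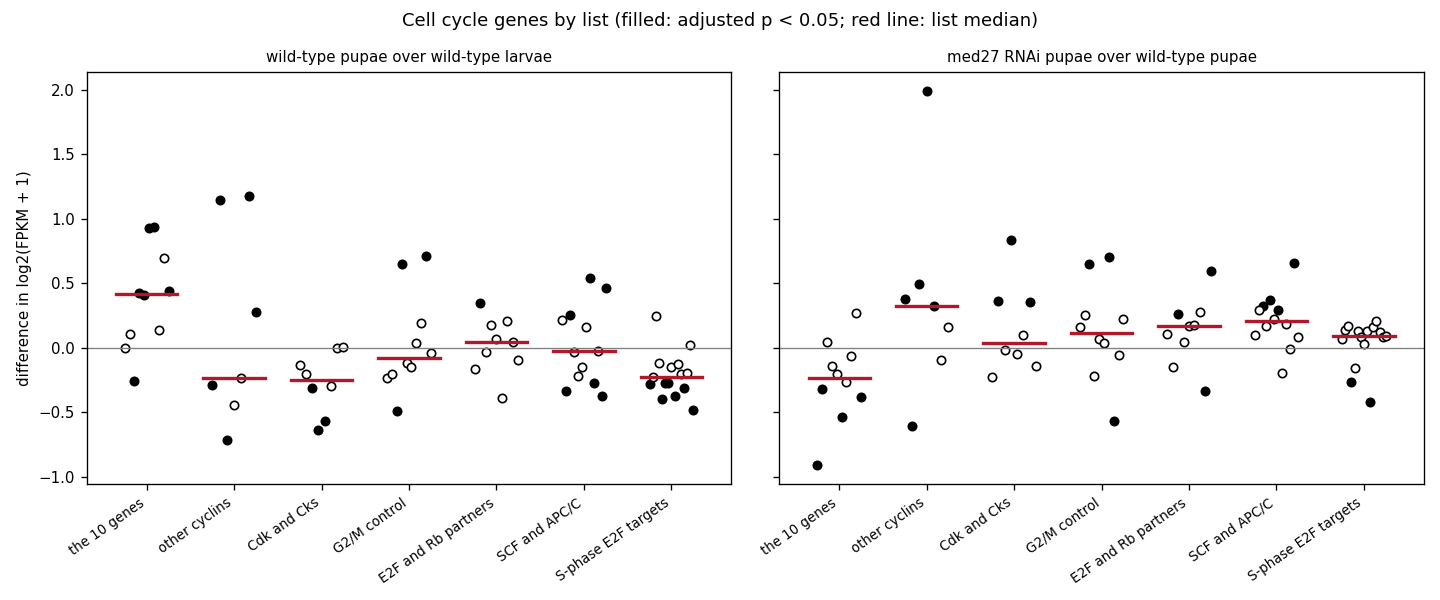
Difference in log2(FPKM + 1) of the 10 genes and of 6 lists of other cell cycle genes (x axis), for wild-type pupae over wild-type larvae and for med27 RNAi over wild-type pupae. Filled points have an adjusted p below 0.05 and red lines are list medians, which for the 10 genes are 0.42 and -0.23 and for the S-phase E2F targets -0.22 and 0.09.

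Likeness of pattern was measured as Pearson's r of log2(FPKM + 1) over the 6 replicates, as a description of points that share 3 groups. Among the 61 listed genes CycG was nearest to CycE (r = 0.991) and to stg (r = 0.913). Of all tested genes 21 were at least as near to CycE and 151 to stg. Dp was nearest to CycD (r = 0.972) and to CycB3 (r = 0.955), and DNApol-alpha50, a primase subunit, to Cdk4 (r = 0.953), with 44, 185 and 89 genes at least as near to CycD, CycB3 and Cdk4. Within the 10 genes CycD and CycE were nearest to each other (r = 0.964), and Rbf and CycB resembled no other member at r above 0.489.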

How the data were processed

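Neuroblast RNA of 3 groups was analysed from the authors' Cufflinks gene tables, 1 per run. The file headers name the deposited values FPKM, which by its definition is normalized to transcript length and mapped fragments. They were computed by the authors and are not counts. Tools listed, without roles, in the submitters' processing notes are Cufflinks 1.3.0, TopHat 1.4.1, DESeq 1.8.3, BWA 0.6.1 and HTSeq. No genome build is named in these sources. In the authors' deposited DESeq tables, base means are a signal of counts divided by size factors, with a ratio (fold change), its log2 value and an adjusted p-value, per the file headers.

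Technical runs were averaged and log2(FPKM + 1) was fitted over all 3 groups with limma 3.58.1 in R 4.3.3 (intensity trend, two-sided). The 6992 genes of mean FPKM at least 1 were kept, with Benjamini-Hochberg adjustment over them and a threshold of 0.05. The test was checked on simulated data. Fold changes on this scale understate changes of low genes. Fragments per value were read from upper confidence bounds, of which 91.8 to 93.9% of those under 50 lay within 0.02 of a whole number in single-transcript genes. They cover counting error only. Transcript lengths came from the Ensembl annotation by identifier, and 76 kept genes had none. Starts in the tables were counted from 0 and are given here from 1. Whether strand was used in counting is unknown, which leaves overlapping genes uncertain. The members and lists were chosen with earlier results of these data known. All 10 members are named, with up to 2 called genes of largest change per list and comparison, and cdc2 and twe were added after their values were seen. Listed symbols not matched were fzr, Cdc23 and NimC1. Tables and plots were made with matplotlib 3.10.9, numpy 2.4.6 and pandas 2.3.3 under Python 3.11.15.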

Additional observations from a re-analysis of the deposited data

How the results depend on the processing

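The 18 alternatives changed the pseudocount, filter, scaling, moderation, runs, groups in the fit or replicates. Of 15 member calls, 5 held under all of them: CycE, E2f and CycD between the stages, and Cdk4 in RNAi pupae against either wild type. No called member changed sign. Members lower in wild-type pupae than in larvae numbered 1, and 0 under quantile normalization, median-ratio scaling, the replicate block, a fit of only the 2 groups compared or no intensity trend. Members lower under RNAi than in wild-type pupae numbered 4, and 2 without a filter. Against wild-type larvae, RNAi pupae had 3 higher members, and 1 without a filter, under quantile normalization, median-ratio scaling, removal of the length trend or no intensity trend, and 2 lower members, and 1 at a pseudocount of 5, without a filter, with the replicate block, with technical run 1 alone, with only the 2 groups or with no intensity trend. Quantile normalization, median-ratio scaling and removal of the length trend each gave 1 higher and 3 lower there, which turns the balance round. Over all genes, 974 were higher between the stages with the length trend removed (1590 in the analysis reported), 879 were higher under RNAi with quantile normalization (1373), and 328 lower without a filter (604). ago, called higher between the stages (0.26), was at -0.19 and not called once the length trend was taken out (limma adjusted p = 0.0639). cdc2, not called between the stages (limma adjusted p = 0.97), was called higher at 0.21 under quantile normalization and at 0.24 once the length trend was taken out. The causes were not tested.

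Leaving out 1 replicate at a time gave 3 to 6 members higher and 0 to 1 lower between the stages, 0 higher and 1 to 4 lower under RNAi, and 0 to 4 higher and 1 lower in RNAi pupae against larvae. Over all genes the ranges were 976 to 1502 higher and 934 to 1980 lower, 540 to 1583 higher and 196 to 679 lower, and 970 to 1934 higher and 645 to 1451 lower. An omission leaves 1 sample in a group, which is then assumed to vary like the others.

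The labels number replicates 1 and 2 in every group without saying that the numbers pair them, and deviations of same-numbered replicates correlated at -0.0256, -0.104 and -0.0572 between the groups. With the replicate block, members called were 6 higher and 0 lower between the stages, where dap passed at 0.69 (limma adjusted p = 0.0274), 3 lower under RNAi, where stg was lost at -0.39 (limma adjusted p = 0.0627), and 2 higher and 1 lower against larvae, where dap passed at 0.96 (limma adjusted p = 0.0101). Over all 6992 genes the fit with the block called 1458 higher and 1577 lower between the stages. It called 1105 and 432 under RNAi, and 1746 and 1192 in RNAi pupae against larvae. With only the 2 groups in the fit, dap passed against larvae too (limma adjusted p = 0.0397). Larval libraries hold fewer fragments, which limits low genes such as dap most.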
